A study of Homo sapiens with 4 samples.

Results

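The genes described here are the 8 prostanoid receptors and the 2 cyclooxygenases, 10 of the 17217 genes that could be named on the arrays. They were taken by name, and the array probes were assigned to them through the RefSeq accession that each probe name carries. The 10 genes were covered by 15 accession targets and 45 probes, of 24000 targets and 71998 probes in all. RNA came from HEK293 cells, a human embryonic kidney line transformed with adenovirus DNA. The cells were untreated and grown to confluence in DMEM with fetal bovine serum, penicillin and streptomycin. All 4 samples belong to that single group, each from its own culture plate and RNA extraction, and each was hybridised to 1 single-colour NimbleGen array. The replicates are plates of a single line, so the spread between them covers culture, extraction, array and the processing of the array values, and their number limits the precision.

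Prostanoids are short-lived lipid messengers made from arachidonic acid. The cyclooxygenases, PTGS1 (COX-1, found in many cells at rest) and PTGS2 (COX-2, switched on by growth factors and inflammation), make the common precursor, and terminal synthases turn it into prostaglandins E, D and F, prostacyclin and thromboxane. Each product acts on its own class A G protein-coupled receptors (GPCRs). The receptors EP2 (PTGER2), EP4 (PTGER4), DP (PTGDR) and IP (PTGIR) raise cyclic AMP through Gs, EP3 (PTGER3) mainly lowers it through Gi, and EP1 (PTGER1), FP (PTGFR) and TP (TBXA2R) mainly raise calcium. In the kidney these receptors are known for their effects on blood flow and on salt and water handling, and HEK293 cells are a common host in which cloned prostanoid receptors are studied.

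A level here is a log2 value. The baseline of an array is the mean plus 2 SD of the seminal control genes, which were chosen by the study as genes unlikely to be transcribed in the line, and the distance of a gene is its level minus that baseline. The baseline was 9.47, 9.94, 10.69 and 10.32 on replicates 1 to 4. The SD of a distance therefore also holds the movement of the baseline between arrays, whose SD was 0.52. Over all named genes the median SD between arrays was 0.63 for distances and 0.42 for levels. Detection of a gene means that the average of its 4 distances exceeded 0, and the one-sided limma test asked whether the distance exceeded 0. In that fit limma estimated 1 common spread for all genes, with a standard error of 0.351 log2 units for every mean distance, so the spread of a single gene did not enter its p. Probes differ in affinity, so a larger distance of 1 gene than of another does not show more transcript. As a floor that does not use the seminal genes, the median level of the 364 olfactory receptor genes was 6.44, 6.27, 7.14 and 6.95 on replicates 1 to 4.

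The markers of the line were checked first. Of 7 genes typical of HEK293 cells 6 were detected, and PAX2 was not. On all 4 arrays 5 of the 7 passed the baseline, and limma called 5, without NEFM (limma adjusted p = 0.0644). Of all named genes 52.7% were detected, 45.0% passed on all 4 arrays and 45.9% were called. NEFM, a neurofilament gene, split the arrays, with levels of 13.57 and 13.09 on replicates 1 and 3 and of 8.32 and 8.08 on replicates 2 and 4. Of 27 markers of other cell types 4 were detected, namely GP1BA, ACTA2, MYH11 and COL1A1. None were among the leukocyte (0 of 6), endothelial (0 of 4) or kidney tubule and podocyte markers (0 of 6). Limma called 2 of the 27, GP1BA and ACTA2, and 1 of the 27 passed the baseline on all 4 arrays. MYH11 and COL1A1 were not called (limma adjusted p = 0.273 and 0.303). GP1BA, a platelet receptor gene, had levels of 9.44, 11.92, 11.02 and 12.47 on replicates 1 to 4. The other platelet genes in the list lay below the baseline on average, PF4 at -3.54, PPBP at -3.49, GP9 at -1.23 and ITGA2B at -1.04 log2 units. GP9 passed the baseline on replicate 2, by 0.03. The part of these array differences in the results that follow was not tested.

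Of the 10 genes 1 was detected, the EP2 receptor gene PTGER2, against 52.7% of all named genes. On every one of the 4 arrays 45.0% of named genes passed the baseline, and 0 of the 10 did. The limma test called 1 of the 10, again PTGER2, and 45.9% of named genes, and at an unadjusted p under 0.05 it also called 1. The distances of 8 of the genes were below 0 on every array. For that count and for the count at an unadjusted p, the share of all named genes was not taken. The median distance was -1.86 log2 units over the 10 genes and 0.26 over all named genes. By the olfactory floor, 5 of the 10 (PTGER2, PTGER4, PTGIR, TBXA2R and PTGS2) stood above at least 90% of olfactory receptor genes on each of the 4 arrays, as did 68.8% of named genes. The study itself reported message for more than 1 type of prostanoid receptor in HEK293 cells, PTGER2 among them. Its handling of probes and control genes may differ from that used here, and the reason for the lower count here was not tested.

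Upstream sequences from RefSeq (GRCh38.p14) are shown for 3 of the genes: PTGER2 because it was the gene detected, PTGER4 because it came nearest to the baseline among the others, and PTGS2 because its transcription is known to be inducible. Each runs over the 250 bases before the annotated start, 5′ to 3′ in the direction of transcription. Capitals mark matches on either strand. The TATA box was searched as TATAAA. The core of the cyclic AMP response element was searched as TGACG. The GC box was searched as GGGCGG. The CCAAT box was searched by the letters of its name. The arrays measured transcripts and not these regions.
PTGER2, chr14:52314062-52314311, plus strand: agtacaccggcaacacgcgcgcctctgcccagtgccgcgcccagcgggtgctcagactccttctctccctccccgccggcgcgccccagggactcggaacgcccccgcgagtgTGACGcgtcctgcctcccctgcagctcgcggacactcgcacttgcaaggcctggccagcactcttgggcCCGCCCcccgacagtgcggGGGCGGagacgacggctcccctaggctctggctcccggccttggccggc
PTGER4, chr5:40679665-40679914, plus strand: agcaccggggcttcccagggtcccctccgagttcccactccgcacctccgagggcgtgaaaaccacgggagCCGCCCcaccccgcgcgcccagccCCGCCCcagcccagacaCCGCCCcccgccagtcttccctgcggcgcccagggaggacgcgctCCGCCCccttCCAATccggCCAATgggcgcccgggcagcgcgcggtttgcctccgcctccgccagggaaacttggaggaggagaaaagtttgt
PTGS2, chr1:186680424-186680673, minus strand: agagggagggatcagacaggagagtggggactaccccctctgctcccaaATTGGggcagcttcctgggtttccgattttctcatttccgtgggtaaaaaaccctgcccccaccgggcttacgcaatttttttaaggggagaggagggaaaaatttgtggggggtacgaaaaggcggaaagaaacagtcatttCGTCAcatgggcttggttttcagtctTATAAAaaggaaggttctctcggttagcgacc

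Both receptor sequences were rich in G and C, at 74% for PTGER2 and 72.8% for PTGER4, against 50.4% for PTGS2 and a median of 58% over 35116 windows of the same length. PTGER2 had 2 GC boxes and PTGER4 had 4, a motif found in 42.6% of all windows, and neither window held TATAAA. PTGER4 also had 2 CCAAT boxes, found in 32% of windows. PTGS2 had TATAAA starting 32 bases before the start, found in 10.7% of windows, and the cyclic AMP element core beginning 58 bases before it, found in 21.2%. PTGER2 held 1 such core as well, 137 bases before the start. None of these matches overlap, and a match describes the letters only. Of the 10 genes 8 had an entry in the sequence table, and PTGER3 and PTGIR had none.

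Of the 4 receptors that raise cyclic AMP, PTGER2 was above the baseline on average, PTGER4 and PTGIR reached it with some of their probes, and PTGDR did not. PTGER2, the EP2 receptor, had levels of 9.80, 12.08, 10.20 and 11.65 on replicates 1 to 4, so that replicates 2 and 4 were high and replicates 1 and 3 low. Its distances were 0.33, 2.14, -0.49 and 1.33, above the baseline on 3 of 4 arrays and below it on replicate 3. The mean distance was 0.83 ± 1.15 log2 units (SD, n = 4, limma adjusted p = 0.0207), smaller than its own spread between arrays. The standard error of PTGER2 from its own 4 values was 0.575, larger than the common 0.351 that the test used. The test no longer passed without replicate 2 (0.39, limma adjusted p = 0.385) or without replicate 4 (0.66, limma adjusted p = 0.149). It also missed the threshold when the arrays that share a value distribution, 1 with 2 and 3 with 4, were taken as blocks (limma adjusted p = 0.0615), when replicates 1 and 3 and replicates 2 and 4 were each averaged first (limma adjusted p = 0.111), and with the median of the probes (0.54, limma adjusted p = 0.236).

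The gap of PTGER2 between the lower of replicates 2 and 4 and the higher of replicates 1 and 3 was 1.46 log2 units. A gap of more than 1 log2 unit in that direction was found for 297 named genes, or 1.73%. The 3 probes of PTGER2 shared the order of the arrays in part. The first probe read 10.49, 12.65, 11.00 and 12.65 on replicates 1 to 4 and was above the baseline on all 4. The second read 9.48, 11.38, 9.14 and 10.51. The last read 9.02, 11.92, 9.83 and 10.82. On each of these probes the values of replicates 2 and 4 lay above those of replicates 1 and 3, and all of them stood above the 95th percentile of olfactory receptor probes on every array.

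Among the 96 other genes of the lipid mediator and signalling lists, those whose profile over the 4 arrays was most like that of PTGER2 were PLA2G4A, a cytosolic phospholipase A2, S1PR5, a sphingosine 1-phosphate receptor, and LPAR3, a lysophosphatidic acid receptor. With each gene centred on its own mean level, the root mean square differences from PTGER2 were 0.176, 0.188 and 0.263 log2 units. Of all named genes 29, 39 and 100 lay closer to PTGER2 than these did, or 0.168%, 0.227% and 0.581%. In each of these listed genes replicates 2 and 4 both lay above replicates 1 and 3, as in PTGER2. They were chosen for their likeness to PTGER2, so the shared order follows largely from that choice and is no separate result. PLA2G4A and S1PR5 lay below the baseline on average, at -1.53 and -1.21 log2 units. LPAR3 lay above it on average, at 0.46 ± 1.14 (SD, n = 4), and was not called (limma adjusted p = 0.194).

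PTGER4, the EP4 receptor, had levels of 9.89, 9.23, 10.53 and 9.87 on replicates 1 to 4. Its mean distance was -0.22 ± 0.49 log2 units (SD, n = 4), and it passed the baseline on replicate 1, by 0.43. Its probes disagreed. The first and second probes averaged 10.12 and 10.55 and reached the baseline on 2 and on 4 arrays, while the third averaged 6.95 and never did. The third probe ran the other way across the arrays, at 5.51 and 6.14 on replicates 1 and 3 and 7.76 and 8.40 on replicates 2 and 4. The probes of this gene spanned 3.60 log2 units in mean level, more than in 89.7% of named targets, and with the median of the probes in place of their mean PTGER4 stood above the baseline, at 0.12 (limma adjusted p = 0.723).

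PTGIR, the prostacyclin receptor, had levels of 8.21, 9.91, 8.74 and 9.29 on replicates 1 to 4, with replicates 2 and 4 above the other two. The mean distance was -1.06 ± 0.80 log2 units (SD, n = 4), and on replicate 2 the gene lay just under the baseline, at -0.02. This level came from a single probe. The third probe averaged 10.41 and passed the baseline on 3 of 4 arrays, whereas the first and second averaged 6.21 and 6.95 and stayed below the 95th percentile of olfactory receptor probes on every array. The span of 4.20 log2 units was wider than in 93.6% of named targets. Spans over 3 log2 units were found in 2 of the 15 targets, those of PTGER4 and PTGIR, and in 16.8% of all named targets. For PTGIR, with the median of the probes the distance was -3.00. PTGDR, the prostaglandin D receptor DP, had levels of 7.23, 6.73, 7.16 and 6.96 and lay on average -3.08 ± 0.58 log2 units from the baseline (SD, n = 4). It lay above 51.4% to 89.0% of olfactory receptor genes on single arrays, and no probe of it reached the baseline on any array.

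**Figure D1:**
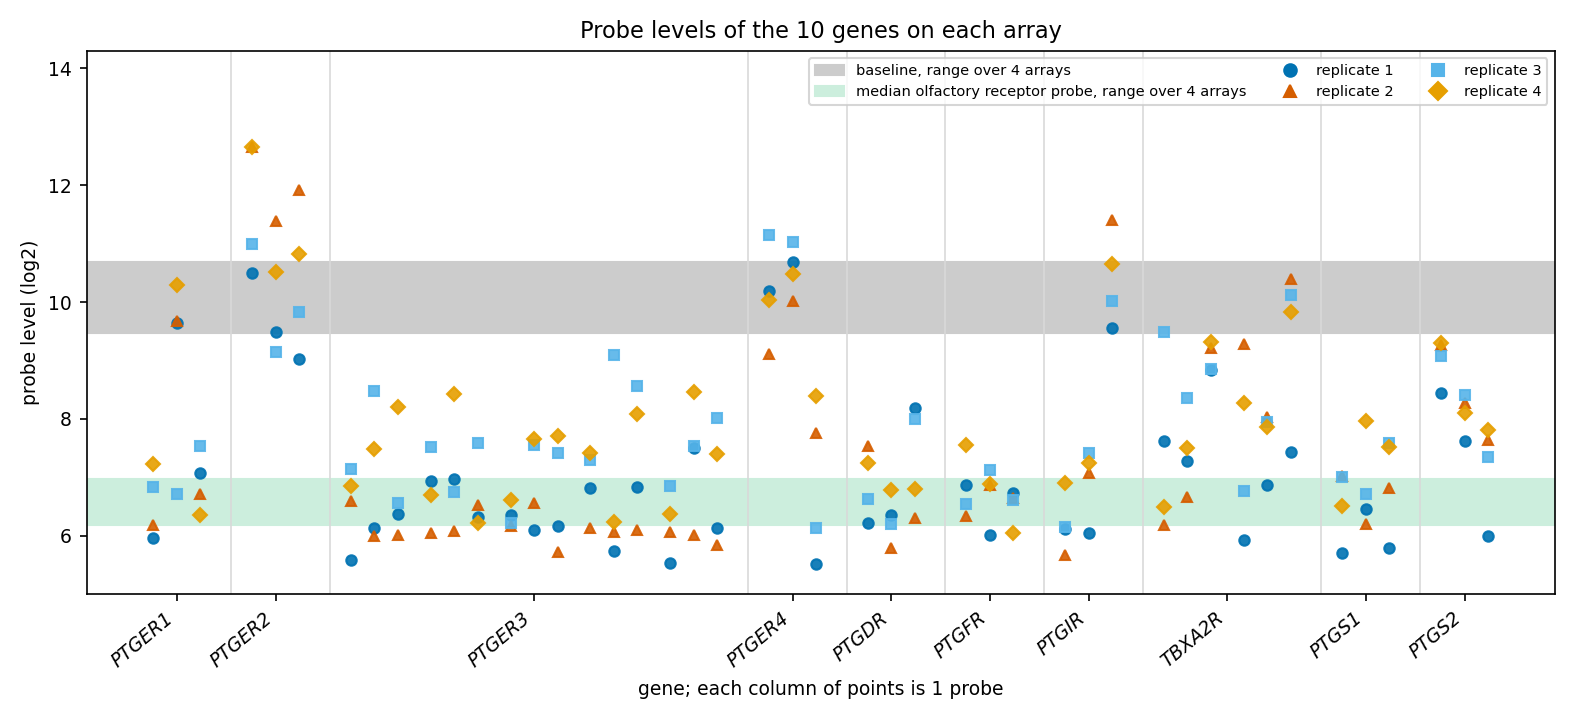
Level of each of the 45 probes (log2, vertical axis) by gene on the horizontal axis, with a column of 4 points per probe, one for each replicate array. The grey band spans the baselines of the 4 arrays (9.47 to 10.69) and the green band the median olfactory receptor probe of each array (6.18 to 6.97). All 3 PTGER2 probes, 2 of 3 PTGER4 probes and 1 of 3 PTGIR probes reach or cross the grey band, as do some PTGER1 and TBXA2R probes on some arrays, and the PTGER3, PTGFR and PTGS1 probes scatter around the green band.

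Over all 45 probes, 2 exceeded the baseline on every array, the first of PTGER2 and the second of PTGER4, against 34.3% of all probes on the arrays. Another 6 passed it on 1 to 3 arrays, and 37 on none. In the plot of probe levels, PTGER2 is the gene whose 3 probes all have a mean level at or above the mean baseline.

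The EP3 receptor gene PTGER3, whose transcripts differ in the part that codes for the receptor tail, was covered by 5 targets and 15 probes. Its levels were 6.45, 6.15, 7.63 and 7.51 on replicates 1 to 4, averaging -3.17 ± 0.43 log2 units from the baseline (SD, n = 4). The 5 targets had mean distances between -3.36 and -2.96, and single probe values ran from 5.53 to 9.09. No PTGER3 probe passed the baseline on any array, and the gene stood above 39.0% to 85.7% of olfactory receptor genes. The higher levels on replicates 3 and 4 were shared by the olfactory floor, which was also higher on those arrays. In all, 25.0% of named genes had both of replicates 3 and 4 above replicates 1 and 2, and 3 of the 10 genes did, PTGER3, PTGFR and PTGS1.

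None of the 3 receptors that mainly raise calcium lay above the baseline on any array. PTGER1, the EP1 receptor, had levels of 8.37, 8.38, 7.07 and 8.95 on replicates 1 to 4, the low value being that of replicate 3. Its mean distance was -1.91 ± 1.15 log2 units (SD, n = 4), and it was -1.34 without replicate 3. The drop came from its second probe, which read 9.64, 9.68, 6.71 and 10.29, while the other two stayed between 5.96 and 7.53 on every array. PTGFR, the prostaglandin F receptor FP, had levels of 6.58, 6.64, 6.79 and 6.96, the narrowest range of the 10 genes, and lay on average -3.36 ± 0.41 log2 units from the baseline (SD, n = 4). It stood above 23.4% to 75.5% of olfactory receptor genes.

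TBXA2R, the thromboxane receptor TP, was represented by 2 targets. The target NM_001060 had levels of 8.07, 8.0, 8.98 and 8.24 on replicates 1 to 4. The target NM_201636 had 6.87, 9.54, 8.94 and 8.92, with replicate 1 low. Their mean distances were -1.78 ± 0.30 and -1.54 ± 0.91 log2 units (SD, n = 4 for each), and that of the gene was -1.66 ± 0.35 (SD, n = 4). The targets therefore differed on replicate 1 and replicate 2 in opposite directions, and their averages differed by less than the spread between arrays. The brightest TBXA2R probe averaged 9.45 and passed the baseline on 1 array.

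Neither cyclooxygenase was detected. PTGS2, the inducible enzyme COX-2, had levels of 7.67, 8.54, 8.44 and 8.56 on replicates 1 to 4, low on replicate 1 and close together on the others. Its mean distance was -1.80 ± 0.35 log2 units (SD, n = 4), below the baseline on every array, yet the gene stood above 96.2% to 98.6% of olfactory receptor genes. Its probes averaged 9.02, 8.10 and 7.20, and the first lay above the 95th percentile of olfactory receptor probes on all 4 arrays while the third did so on none. PTGS1, the enzyme COX-1, had levels of 6.03, 6.72, 7.15 and 7.45 and lay on average -3.27 ± 0.30 log2 units from the baseline (SD, n = 4). It stood above 14.6% of olfactory receptor genes on replicate 1 and above 83.8% on replicate 4, and its 3 probes averaged 6.56, 6.84 and 6.93.

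**Figure D2:**
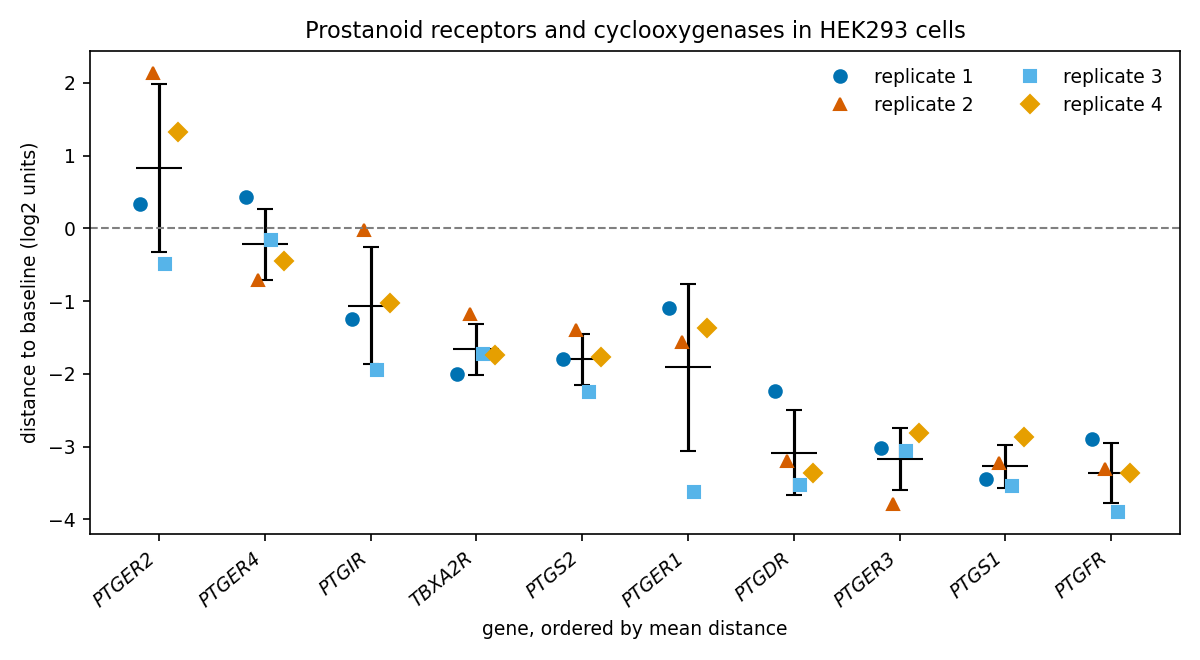
Distance of each gene to the baseline of the array (log2 units, vertical axis) for the 10 genes on the horizontal axis, in the order of their means. Coloured points are the 4 replicate arrays, horizontal bars the means and whiskers 1 SD over the arrays, with the dashed line at the baseline. PTGER2 is the gene with a mean above the line, at 0.83, PTGER4 lies just below it at -0.22, and PTGDR, PTGER3, PTGS1 and PTGFR form the lowest group at -3.08 to -3.36.

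In the order of mean distance the 10 genes ran PTGER2, PTGER4, PTGIR, TBXA2R, PTGS2, PTGER1, PTGDR, PTGER3, PTGS1 and PTGFR. Between neighbours in that order, the difference exceeded its SD over the arrays in 2 of 9 cases. PTGIR was above TBXA2R by 0.59 ± 0.58 and PTGER1 above PTGDR by 1.17 ± 0.91 log2 units (SD, n = 4 for each). PTGER2 was above PTGER4 by 1.05 ± 1.53 (SD, n = 4), and on 2 of the 4 arrays the order was the other way round. Replicates 2 and 4 both lay above replicates 1 and 3 for 4 of the 10 genes (PTGER1, PTGER2, PTGIR and PTGS2), against 18.5% of named genes, and both lay below for 2 of the 10 (PTGER4 and PTGDR), against 22.2%. For PTGER1 and PTGS2 the gap was 0.01 and 0.11 log2 units.

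Genes that act before and after the cyclooxygenases were counted by the same rule. Of 20 matched genes for arachidonate release, terminal synthesis, clearance, transport and the further prostaglandin D receptor PTGDR2, 7 were detected, all on each of the 4 arrays and all called by limma. With a baseline of 3 SD the limma call was lost for PTGES2, PTGR1 and PTGR2. As stated for the 10 genes, 52.7% of all named genes were detected. Of the 3 matched phospholipases A2 that release arachidonate none (0 of 3) was detected, and PLA2G4A, the main cytosolic form, stood at -1.53 ± 0.96 log2 units from the baseline (SD, n = 4). The limma test called none of these, and none at an unadjusted p under 0.05 either.

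Of 11 terminal synthases 4 were detected. Both constitutive prostaglandin E synthases were among them, with PTGES3, also a co-chaperone of HSP90, at 5.14 ± 0.83 and PTGES2 at 2.14 ± 0.58 log2 units above the baseline (SD, n = 4 for each). The inducible PTGES lay below it, at -1.49 ± 0.56 (SD, n = 4). Also detected were AKR1B1, an aldose reductase that can form prostaglandin F, at 5.02 ± 0.68, and the carbonyl reductase CBR1 at 3.89 ± 0.69 (SD, n = 4 for each). Both have wider roles in carbonyl metabolism. The prostaglandin D synthases PTGDS and HPGDS, at -3.19 and -3.52, the thromboxane synthase TBXAS1, at -2.53, and the prostacyclin synthase PTGIS, at -1.11, lay below the baseline on all 4 arrays, and so did AKR1C3, an aldo-keto reductase that can form prostaglandin F, at -1.94. PRXL2B, another prostaglandin F synthase, had a mean distance of -0.22 and was above the baseline on 1 array.

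Clearance and transport had 3 of 5 genes detected. These were the efflux carrier ABCC4, which exports prostaglandins among other anions, at 2.48 ± 0.71, and the reductases PTGR1 and PTGR2 at 1.40 ± 0.99 and 1.08 ± 0.51 log2 units (SD, n = 4 for each). HPGD, the enzyme that starts prostaglandin breakdown, had a mean distance of -1.0 ± 0.79, and the uptake carrier SLCO2A1 one of -0.39 ± 0.73 (SD, n = 4 for each). SLCO2A1 was above the baseline on replicate 1, by 0.70, and at -0.68 to -0.84 on the others. The receptor PTGDR2, a member of the chemoattractant receptor family, stood at -2.17 ± 0.23 (SD, n = 4).

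**Figure D3:**
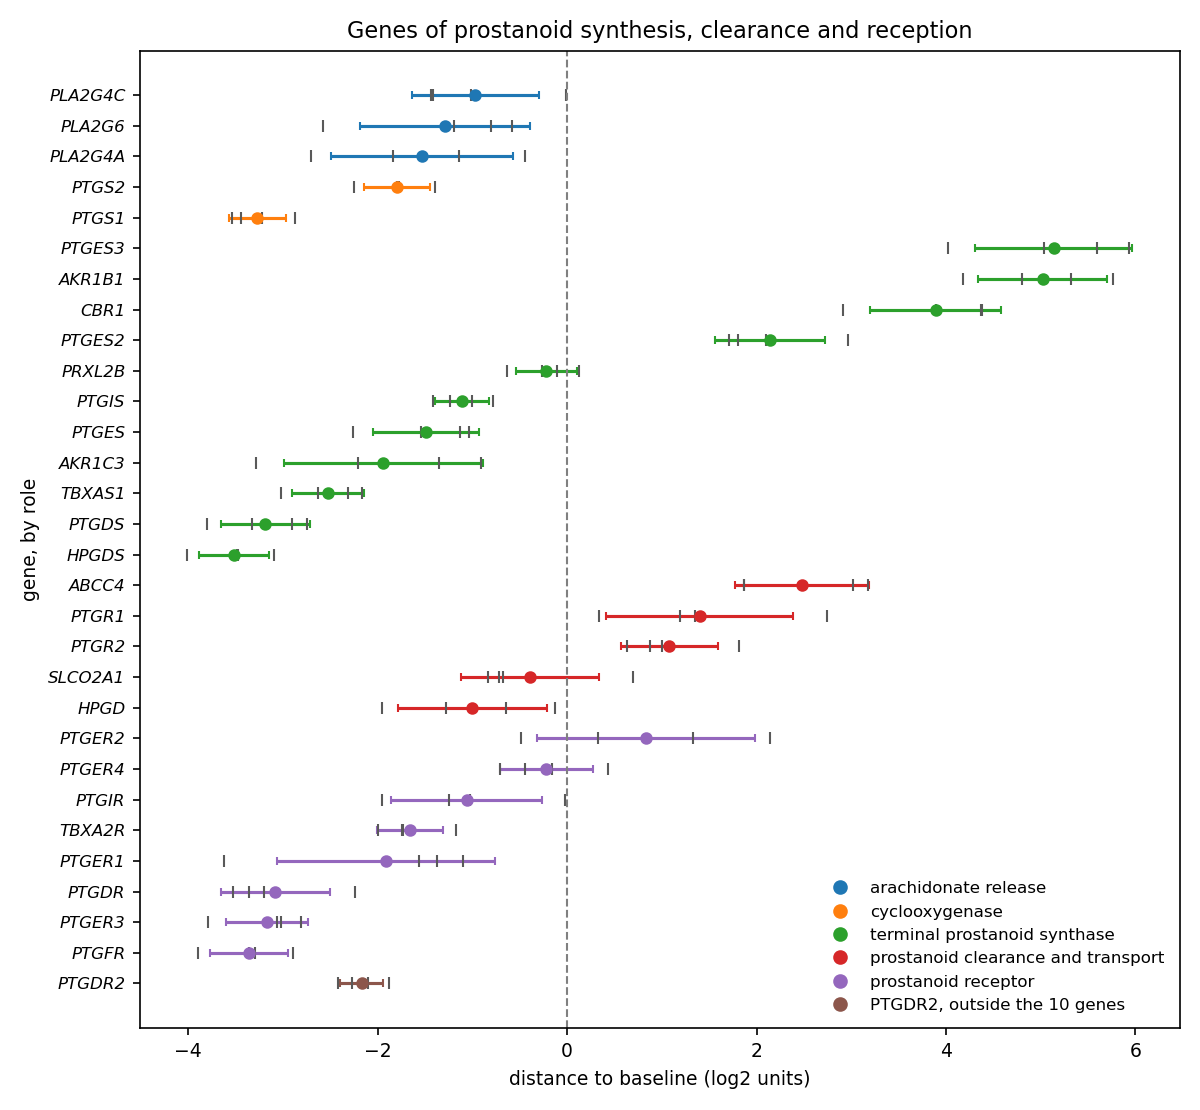
Mean distance to the baseline (log2 units, horizontal axis) of 30 genes, named on the vertical axis and coloured by role. Points are means over the 4 arrays, whiskers 1 SD and short ticks the single arrays, with the dashed line at the baseline. The detected genes are 4 synthases, 3 clearance or transport genes and PTGER2, and both cyclooxygenases and all 3 phospholipases lie to the left of the line.

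The receptors signal through G proteins. Of 13 G alpha subunit genes 9 were detected. GNAS, the Gs subunit used by EP2, EP4, DP and IP, stood at 5.03 ± 0.73, GNAI2, a Gi subunit used by EP3, at 3.77 ± 0.54, and GNAQ, used by EP1, FP and TP, at 2.45 ± 0.76 log2 units (SD, n = 4 for each). GNA13, to which TP also couples, stood at 2.48 ± 0.89 (SD, n = 4). Of 10 adenylyl cyclases, the enzymes that make cyclic AMP, 5 were detected. Beside these counts, 52.7% of all named genes were detected.

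The number of these 10 genes called detected rested on where the baseline was set. With the olfactory receptor genes as controls, 6 were above it, PTGER2 at 2.91, PTGER4 at 1.86, PTGIR at 1.02, TBXA2R at 0.43, PTGS2 at 0.28 and PTGER1 at 0.17 log2 units, and 71.4% of named genes passed that baseline. The count was also 6 without SPATA5 and SPATA13, the 2 brightest control genes, beside 74.0% of named genes, and 0 with a baseline of 3 SD, beside 39.1%. It was 3 with 1 SD, beside 64.3%, 4 with the median plus 2 scaled median absolute deviations, beside 67.7%, and 2 with the median of the probes, beside 50.2%. PTGDR, PTGER3, PTGFR and PTGS1 lay below the baseline under every setting run.

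**Figure D4:**
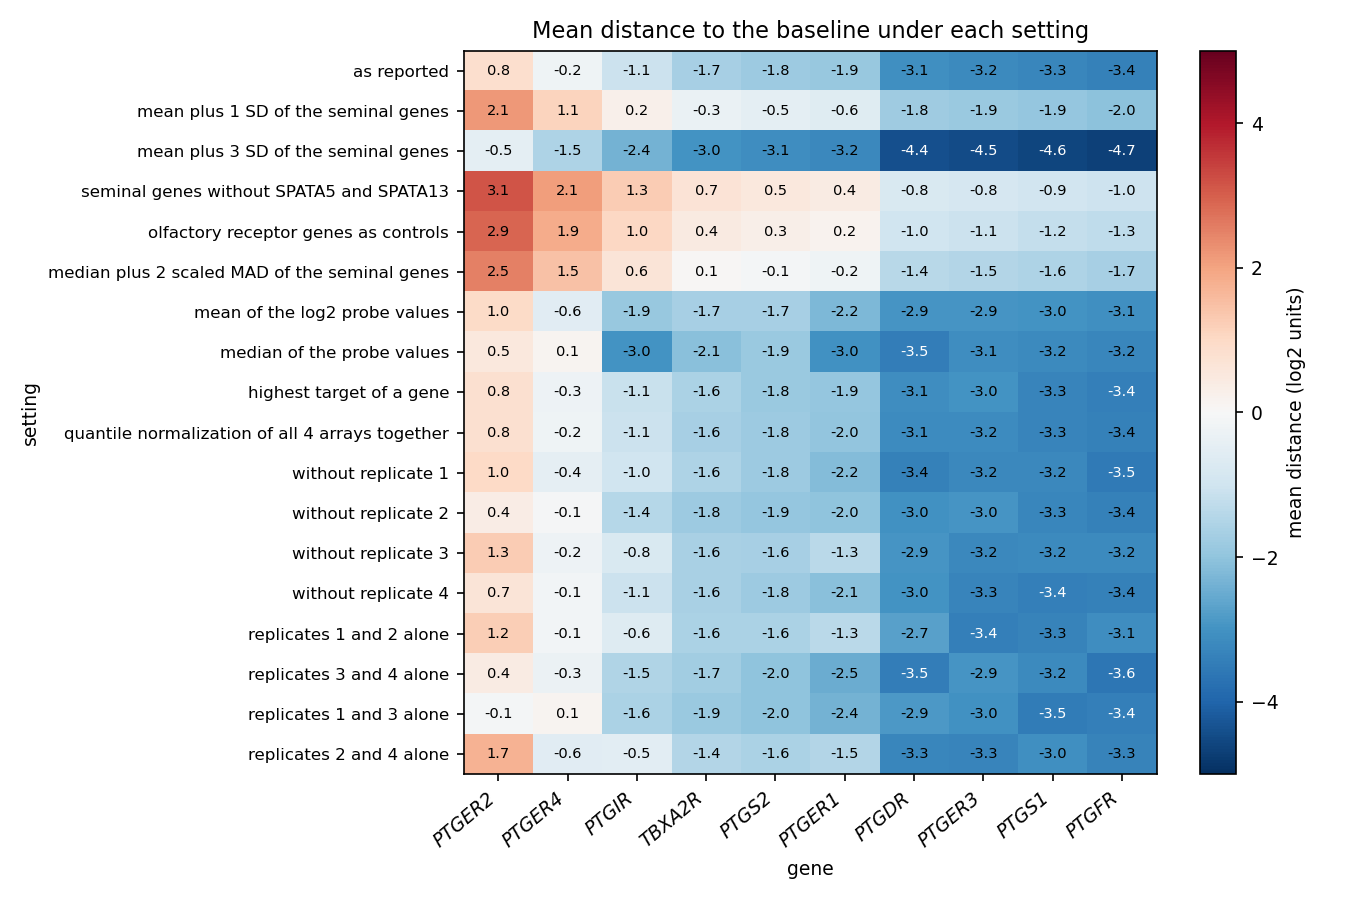
Mean distance to the baseline (log2 units, colour and printed value) of the 10 genes on the horizontal axis under the reported setting and the alternatives that can move a distance, on the vertical axis. Red marks means above the baseline and blue means below it. PTGER2 is below the baseline with 3 SD (-0.49) and with replicates 1 and 3 alone (-0.08), and the 4 genes on the right are blue in every line.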

How the data were processed

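Each of 4 arrays gave 71998 probe values. The authors deposited them as log2 values, already normalised. RMA is named, with no role or version, in the submitters' processing notes, and 99.97% of ranked values agreed within 0.01 between replicates 1 and 2 and 99.99% between replicates 3 and 4, so these pairs share a distribution. Accessions in the probe names were matched without versions to RefSeq (GRCh38.p14), used for names alone. A target's level was the log2 of the mean of its linear probe values, and a gene's the mean of its targets. The baseline used 10 of 11 seminal control genes that matched.

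Distances to the baseline were tested against 0 with limma 3.58 in R 4.3, one-sided, with Benjamini-Hochberg adjustment over 17217 genes at 0.05. The calculation was first checked on simulated data. Those arrays were independent, without a shared baseline or paired distributions, so the check does not cover these features of the real arrays. An exact sign-flip test of 4 arrays cannot go below p = 0.0625. Alternatives changed the baseline, the probe and target summary, normalisation, arrays and model. The genes named were all 10 members, genes of fixed lists, and the 3 listed genes most like a detected member. Members and lists were chosen with earlier results of these data known. Lipoxygenase, leukotriene and COX-2 regulator lists are given among the closing observations. Probe sequences were not used here.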

Additional observations from a re-analysis of the deposited data

Results flagged for a closer look

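Of 48 levels or distances looked at, 3 had a replicate whose gap to the nearest other one, as a share of the range of the 4 arrays, was above Dixon's 95% critical value. Chance marks about 1 in 20. For the distance of SLCO2A1 the share was 0.897, with replicate 1 high. Its levels were 10.17, 9.22, 10.01 and 9.48 on replicates 1 to 4, so replicate 1 did not stand apart in level. For the level of PTGS2 the share was 0.870, with replicate 1 low, while its distances were -1.80, -1.39, -2.25 and -1.77. For the distance of GNAI2 the share was 0.830, with replicate 1 high, while its levels were 14.03, 13.53, 14.09 and 13.84. The baseline was lowest on replicate 1, at 9.47, so these marks depend on whether level or distance is taken.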

How the results depend on the processing

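No paired analysis was possible because all samples form 1 group. With the baseline set at 1 SD, 3 SD, without SPATA5 and SPATA13, from olfactory receptor genes, or as the median plus 2 scaled MAD, the number of the 10 genes detected was 3, 0, 6, 6 and 4, beside 64.3%, 39.1%, 74.0%, 71.4% and 67.7% of named genes. It was 2 with the median of the probes, beside 50.2%, and 0 when all 4 arrays had to pass, beside 45.0%. Of the 20 pathway genes, 7 as reported, 13 were detected at 1 SD, 17 without SPATA5 and SPATA13, 16 with olfactory genes and 15 with the MAD. At 3 SD limma no longer called PTGES2 (0.83, limma adjusted p = 0.0528) or PTGR1 (0.09). With replicates 3 and 4 alone it no longer called PTGR1 (0.76, limma adjusted p = 0.0676) or PTGR2 (0.75, limma adjusted p = 0.0534). The distances that changed sign follow, in log2 units. Without SPATA5 and SPATA13 they were PTGER1 0.42, PTGER4 2.10, PTGIR 1.26, TBXA2R 0.67, PTGS2 0.52, PTGDR2 0.16, PLA2G4A 0.80, PLA2G4C 1.36, PLA2G6 1.04, PTGES 0.84, PTGIS 1.22, AKR1C3 0.39, PRXL2B 2.11, HPGD 1.32 and SLCO2A1 1.94. With olfactory genes they were PTGER1 0.17, PTGER4 1.86, PTGIR 1.02, TBXA2R 0.43, PTGS2 0.28, PLA2G4A 0.55, PLA2G4C 1.11, PLA2G6 0.79, PTGES 0.59, PTGIS 0.97, AKR1C3 0.15, PRXL2B 1.86, HPGD 1.08 and SLCO2A1 1.70. At 1 SD they were PTGER4 1.10, PTGIR 0.25, PLA2G4C 0.35, PLA2G6 0.03, PTGIS 0.21, PRXL2B 1.10, HPGD 0.31 and SLCO2A1 0.93. With the MAD they were PTGER4 1.48, PTGIR 0.64, TBXA2R 0.05, PLA2G4A 0.17, PLA2G4C 0.73, PLA2G6 0.42, PTGES 0.22, PTGIS 0.59, PRXL2B 1.49, HPGD 0.70 and SLCO2A1 1.32. At 3 SD PTGER2 was at -0.49, PTGR2 at -0.24 and LTB4R at -0.54. With the median of the probes PTGER4 was at 0.12, and with the mean of log2 probe values PRXL2B at 0.08. With replicates 1 and 3 alone PTGER2 was at -0.08, PTGER4 at 0.13 and SLCO2A1 at 0.01, and with replicates 1 and 2 alone PRXL2B was at 0.01. Raising or lowering the baseline moves all genes of an array together, and other causes were not tested. Of the distances of the 10 genes under single alternatives, 186 kept their direction and side of the threshold, 19 changed sign and 6 lost the limma call. Centring each array, averaging replicate pairs first and changing the limma model cannot move a mean distance. For genes below the baseline the one-sided test could then call nothing, so those settings were bound to count as kept. The number of arrays limits what these data can resolve, and genes with distances near 0 are the least certain.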

Other observations

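The lipoxygenase branch uses the same fatty acid. Of 9 lipoxygenase and leukotriene enzymes 1 was detected, LTA4H, which makes leukotriene B4, at 4.65 ± 0.73 log2 units above the baseline (SD, n = 4). Of 5 leukotriene and related receptors 1 was detected, LTB4R, with levels of 11.10, 9.93, 10.90 and 11.58 on replicates 1 to 4. Its mean distance was 0.78 ± 0.79 (SD, n = 4, limma adjusted p = 0.0302), and the call was lost without replicate 1 (0.49, limma adjusted p = 0.17) and without replicate 4 (0.61, limma adjusted p = 0.179). It was also lost with the arrays that share a distribution as blocks (limma adjusted p = 0.0796), with a trend and robust prior (limma adjusted p = 0.0561), and with the mean of log2 probe values or the median of the probes (limma adjusted p = 0.0738 and 0.594). Over all alternatives the limma adjusted p ran from 1.32e-13 to 1. Of 20 matched receptors for other lipids 4 were detected, 0 of them on all 4 arrays. Limma called 1 of these, LPAR1 (limma adjusted p = 0.0341). Of 10 genes that act on COX-2 transcription or mRNA stability 7 were detected, among them RELA, a subunit of NF-kappa B, at 3.06 ± 0.45 and ELAVL1, an mRNA-stabilising protein, at 2.09 ± 0.79 (SD, n = 4 for each). Beside the counts of these lists, 52.7% of all named genes were detected, 45.0% passed the baseline on all 4 arrays and limma called 45.9%.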
